A study of Mus musculus with 3 samples.

Results

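The D cyclins and the CDK inhibitors were followed through all array probes that carry 1 of 10 gene names, of 27745 names on the array: Ccnd1, Ccnd2 and Ccnd3, the Cip/Kip inhibitors Cdkn1a, Cdkn1b and Cdkn1c, and the INK4 inhibitors Cdkn2a, Cdkn2b, Cdkn2c and Cdkn2d. They belonged to 15 of 41174 probes, and the 15 probes took up 51 of 43379 non-control spots. The study compared kidney rudiments of Fgfrl1-/- mice, which lack the receptor Fgfrl1 in every tissue, with those of wildtype mice at E12.5 on a C57BL/6 background. Each of 3 two-colour arrays held 1 Fgfrl1-/- RNA pool labelled with Cy3 and 1 wildtype pool labelled with Cy5, and each pool came from 6 to 9 rudiments. No array had the dyes the other way round, so dye and genotype cannot be told apart. Nothing in the labels ties the pools to separate litters, and the p-values given here measure only the spread between these 3 arrays.

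D cyclins (Ccnd1 to Ccnd3) bind the kinases Cdk4 and Cdk6, and these complexes phosphorylate the retinoblastoma protein, which releases E2F transcription factors and opens the way into S phase. INK4 proteins bind Cdk4 and Cdk6 and keep D cyclins from activating them, while Cip/Kip proteins bind cyclin-CDK complexes as a whole. In the developing kidney Ccnd1 is known as a target of Wnt signaling in nascent nephrons, and Cdkn1c, an imprinted gene expressed from the maternal allele, is known from podocytes and stromal cells and from renal defects when it is lost.

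Each probe was a 60-base oligonucleotide, and its sequence shows what a value stands for. The opening 30 bases are given for the 3 probes whose ratios had 1 sign on all 3 arrays and sat farthest from 0, for the Cdkn2a probe, and for the Cdkn2c pair, with positions of the whole probe on mouse build mm8 as the array file gives them. All lie on the minus strand. Exon and UTR borders on that build were not analysed here.
Ccnd1, chr7:144739658-144739717: tgttttgtgttaattacagcattgtgctaa
Cdkn1c, chr7:143268238-143268297: cgtagagcagcccacggttttgtggaaatc
Cdkn2b, chr4:88777764-88777823: catgtgtggggattcacctgcaaaatggca
Cdkn2a, chr4:88745872-88745931: cacttctagcgatgctagcgtgtctagcat
Cdkn2c probe 1, chr4:109159106-109159165: tctcactgacctcacactgtCCGTTAGTTG
Cdkn2c probe 2: CCGTTAGTTGgttggctgtccgtttcacta
Capitals mark the 10 bases that close the shown stretch of Cdkn2c probe 1 and open probe 2. The pair shared 40 of 60 bases and therefore read nearly the same stretch of the transcript. The Cdkn2a probe is listed with 2 RefSeq transcripts, and its signal cannot be divided between p16Ink4a and p19Arf, the unrelated proteins that this locus encodes in different reading frames.

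Ratios are log2 values of Fgfrl1-/- over wildtype per array after normalization. A probe passed the test at a Benjamini-Hochberg adjusted p below 0.05 in limma over all 41174 probes. Fgfrl1, the deleted gene, had log2 ratios of -1.21, -1.51 and -1.83 on arrays 1, 2 and 3, and its mean fell by 1.52 ± 0.31 (SD, n = 3; adjusted p = 0.0332). Array 1 stood apart from the others: across all probes its log2 ratios correlated with those of array 2 at r = 0.11 and of array 3 at r = 0.22, whereas arrays 2 and 3 correlated at r = 0.71. Array 1 was on a slide of its own and was read with another version of the scanner software than arrays 2 and 3, which shared a slide. Means without array 1 are given beside several members. In that fit of 2 arrays from 1 slide, 7666 of 41174 probes passed the test, against 283 with all 3 arrays. In bulk RNA, fewer cells of a type and less RNA per cell cannot be told apart.

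Cdkn2b was higher in Fgfrl1 deficient kidneys than in wildtype kidneys and was 1 of 15 member probes that passed the test, while 0 passed in the lower direction. Over all probes, 0.687% passed, 0.289% higher and 0.398% lower. Of the 22824 probes that were well above background in both channels on all arrays, 1.19% passed, and of the 12 member probes among them 0 passed in limma and 2 had an unadjusted p below 0.05. Without a correction for multiple testing, 3 member probes had p below 0.05, against 15.9% of all probes, and these were Ccnd1, Cdkn1c and Cdkn2b. The log2 ratio was above 0 on all 3 arrays in 3 member probes, Cdkn1b probe 1, Cdkn1c and Cdkn2b, against 19% of all probes. It was below 0 on all 3 arrays in 1 member probe, Ccnd1, against 19.2% of all probes. The median of the 15 mean log2 ratios was 0.02, and that of all probes was 0.0037. In the remaining 12 member probes the mean log2 ratio lay between -0.09 and 0.19. A probe measures its own target with its own efficiency, so signals are compared only between genotypes, on the same probe or summed over the same probes.

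**Figure D1:**
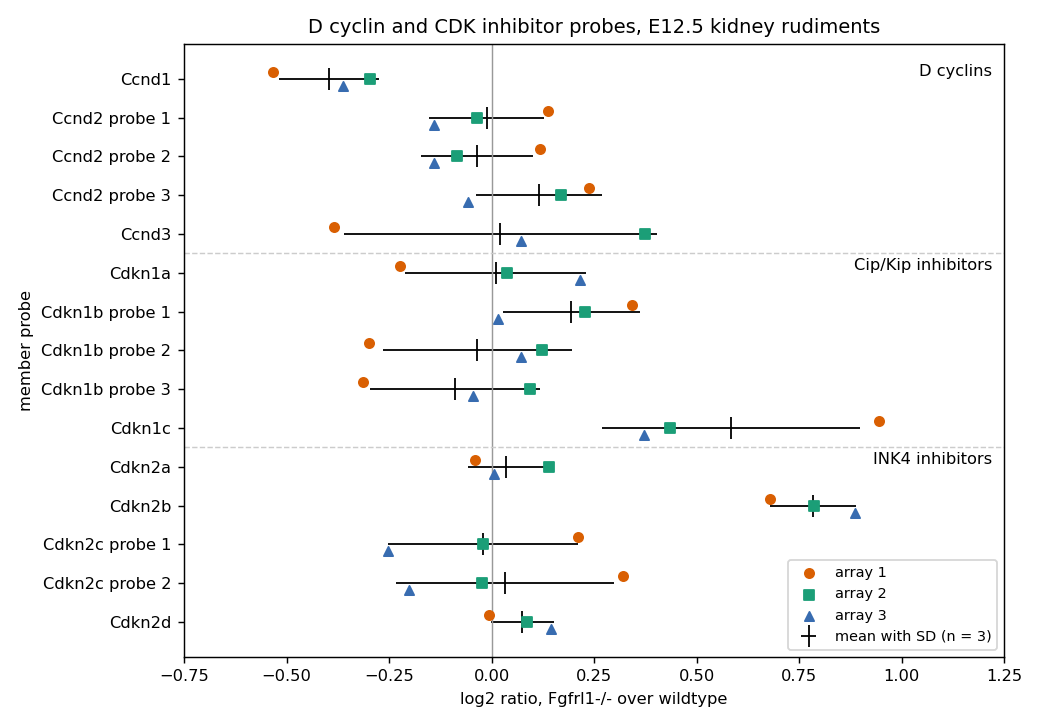
Log2 ratio of Fgfrl1-/- over wildtype (horizontal axis) for each of the 15 member probes (vertical axis). Coloured symbols are the 3 arrays and black bars the mean with SD. Ccnd1 lies left of 0 on every array, Cdkn1c and Cdkn2b lie right of 0 on every array, and most other probes have arrays on both sides of 0.

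Among the D cyclins, Ccnd1 had the lowest mean ratio, but it did not pass the test. Its normalized log2 signal in the Fgfrl1-/- pools was 12.12, 11.87 and 11.82 on arrays 1, 2 and 3, and in the wildtype pools 12.65, 12.17 and 12.18. The Fgfrl1-/- pool was the lower one on every array, and its highest value lay under the lowest wildtype value. The share of all probes separated in this way was not counted. The log2 ratios were -0.53, -0.30 and -0.36, with a mean of -0.40 ± 0.12 (SD, n = 3), a wildtype level 1.32-fold that of Fgfrl1-/- (adjusted p = 0.1002 in limma). The 95% confidence interval of the mean, not corrected for the number of probes, ran from -0.60 to -0.20. The probe was printed as 10 spots per array, and all of them were below 0 on each array, with ranges of -0.82 to -0.30, -0.36 to -0.21 and -0.52 to -0.25 for arrays 1, 2 and 3. Without array 1, where 7666 of all 41174 probes passed, the mean was -0.33 and the adjusted p 0.00784. Over all alternatives the adjusted p ranged from 0.00784 to 0.5998.

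Ccnd2, the D cyclin that was measured with 3 probes at separate places of the transcript, gave no ratio with 1 sign on all arrays. Probe 1 had log2 ratios of 0.14, -0.03 and -0.14 and probe 2 of 0.12, -0.08 and -0.14 on arrays 1, 2 and 3. Probe 3 gave 0.24, 0.17 and -0.06. Their means were -0.01, -0.04 and 0.12 (adjusted p = 0.970, 0.898 and 0.603), and the lowest and highest bounds of their 95% confidence intervals were -0.24 and 0.33. On a given array the 3 probes differed from each other by at most 0.25. Ccnd3 had log2 ratios of -0.38, 0.37 and 0.07, so arrays on either side of 0 gave a mean of 0.02 ± 0.38 (adjusted p = 0.972). Without array 1 the mean of Ccnd3 was 0.22 (adjusted p = 0.0875, and 0.0875 to 0.999 over the alternatives). Its interval, -0.35 to 0.39, leaves room for a difference in either direction.

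Within each array the D cyclins had unequal ratios. Ccnd1 lay below the mean of the Ccnd2 probes by a log2 difference of -0.70, -0.31 and -0.25 on arrays 1, 2 and 3. With each array centred on its median instead of the intensity-dependent loess curve, these differences were -0.54, -0.18 and -0.14. The pair was chosen after its values were seen, and the difference is given as a description without a test.

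**Figure D2:**
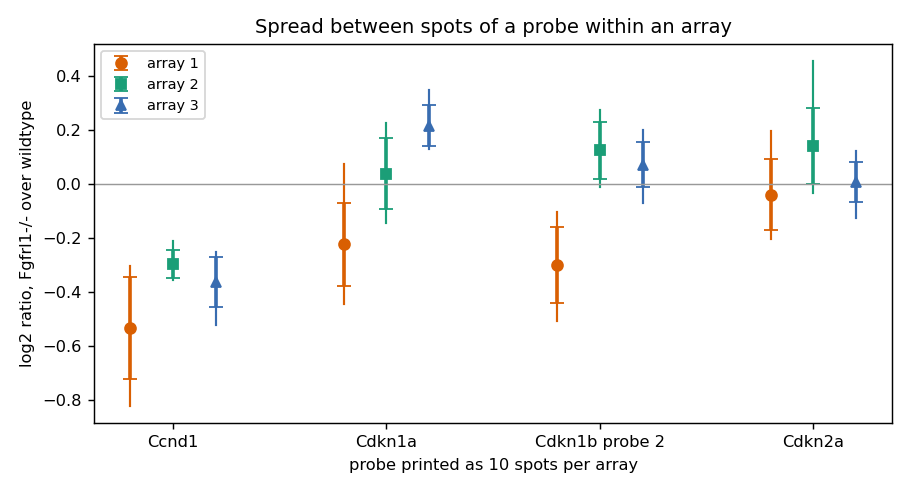
Log2 ratio of Fgfrl1-/- over wildtype (vertical axis) for the 4 member probes that were printed as 10 spots per array (horizontal axis), with the mean (symbol), SD (capped bar) and lowest to highest spot (thin line) on each array. All spots of Ccnd1 lie below 0, and the Cdkn1a and Cdkn1b means of array 1 lie below those of arrays 2 and 3.

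Among the Cip/Kip inhibitors, Cdkn1c had the highest mean ratio without passing the test. Its normalized log2 signal was 16.52, 16.34 and 16.37 in the Fgfrl1-/- pools and 15.57, 15.91 and 15.996 in the wildtype pools. After normalization the Fgfrl1-/- values lay above all wildtype values, a separation whose share over all probes was not counted. The log2 ratios were 0.94, 0.43 and 0.37, with a mean of 0.58 ± 0.31 (SD, n = 3), a 1.498-fold difference (adjusted p = 0.115), and array 1 lay far from the other two. Without array 1, where 7666 of all 41174 probes passed, the mean was 0.40 and the adjusted p 0.00239. Over the alternatives the adjusted p ranged from 0.00239 to 0.993.

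The direction of Cdkn1c rested on the normalization. Before it, the median signal of the probe was 68560 in the Fgfrl1-/- pool and 39558 in the wildtype pool on array 1, but the wildtype pool was the brighter one elsewhere, with 115247 over 53460 (array 2) and 100844 over 74986 (array 3). On arrays 2 and 3 the wildtype channel of bright spots was brighter in general: after median centring, the 4117 brightest probes had median log2 ratios of -0.01, -0.85 and -0.32 on arrays 1, 2 and 3, and loess brought these to 0.015, 0.0045 and 0.0004. With median centring alone, the mean ratio of Cdkn1c was -0.01. Relative to Ccnd2 on the same arrays, Cdkn1c was higher by 0.78, 0.42 and 0.48 after loess and by 0.70, 0.31 and 0.39 after median centring, a pair chosen after its values were seen.

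Cdkn1a, which encodes p21 and is induced by p53, gave log2 ratios of -0.22, 0.04 and 0.21, a mean of 0.01 ± 0.22 (adjusted p = 0.981), and 0.13 without array 1. Its 10 spots per array overlapped 0 on arrays 1 and 2 and lay between 0.13 and 0.35 on array 3. Cdkn1b, which encodes p27, was measured with 3 probes. Probe 1 gave 0.34, 0.23 and 0.01, a mean of 0.19 ± 0.17 (adjusted p = 0.378), and probe 2 gave -0.30, 0.12 and 0.07, a mean of -0.03 ± 0.23 (adjusted p = 0.927). On array 1 these probes pointed in opposite directions, and the 3 Cdkn1b probes spanned 0.66 there, against 0.13 and 0.12 on the other arrays. Without array 1, probes 1 and 2 had means of 0.12 and 0.10. Probe 3 was not well above background in any pool and had a mean of -0.09 (adjusted p = 0.749).

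Cdkn2b, which encodes the INK4 protein p15, was the member that passed the test. Its normalized log2 signal was 6.82, 6.93 and 7.11 in the Fgfrl1-/- pools and 6.14, 6.14 and 6.22 in the wildtype pools. The genotypes did not overlap, and the share of all probes separated in this way was not counted. The log2 ratios were 0.68, 0.79 and 0.89, with a mean of 0.78 ± 0.10 (SD, n = 3), or 1.72-fold. Its p in limma was 8.62e-05, and the adjusted p was 0.0379.

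The signal of Cdkn2b was close to the background. The median brightness of its single spot was 93, 73 and 92 in the Fgfrl1-/- channel, where the local background was 19, 26.5 and 26, and 64, 70 and 64 in the wildtype channel, where it was 57, 54 and 47. The probe was well above background in the Fgfrl1-/- pool on 3 arrays and in the wildtype pool on 1 array. Its ratio was above 0 under all 16 alternatives and ranged from 0.73 without array 3 to 2.86 in the ratios of the scanner software. Alternatives that kept the normalized ratios, or left out or averaged arrays, could not change this sign. The size of the difference therefore depended on how the background was handled, and it was 1.75 when no offset was added to the signals (adjusted p = 0.249). The test was passed under 6 of 16 alternatives, with adjusted p from 1.96e-05 without array 1 to 0.471 without array 3; without array 2 it was 0.344.

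**Figure D3:**
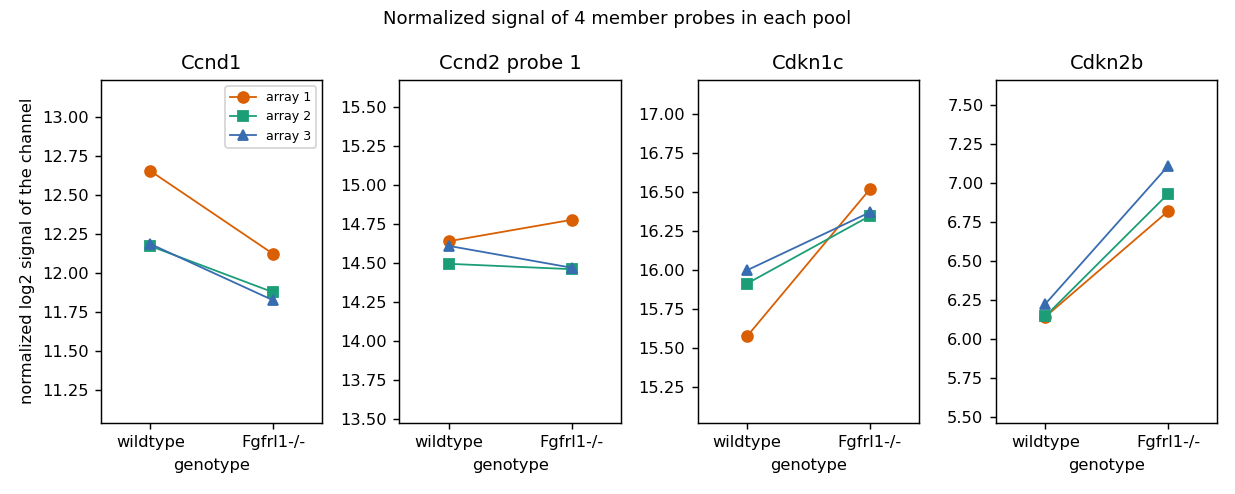
Normalized log2 signal (vertical axis, the same span in each panel) of Ccnd1, Ccnd2 probe 1, Cdkn1c and Cdkn2b in the wildtype and Fgfrl1-/- pools (horizontal axis), with a line joining the pools of an array. The lines of Ccnd1 go down and those of Cdkn1c and Cdkn2b go up on all 3 arrays, whereas Ccnd2 has lines in both directions.

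Cdkn2a lies next to Cdkn2b in the RefSeq annotation, in the order Mtap, Cdkn2a, Cdkn2b, Dmrta1. Its probe was not well above background in any pool: the brightness was 22.5, 33.4 and 28.8 in the Fgfrl1-/- channel over a background of 18.6, 26.1 and 25.8, and 57.2, 51.3 and 49.2 in the wildtype channel over 57.1, 49.6 and 47.7. The log2 ratios of -0.04, 0.14 and 0.01 (adjusted p = 0.888) therefore describe background, and a difference in Cdkn2a was not detectable at this signal. Mtap, a gene of methionine salvage, had ratios of -0.30, -0.34 and -0.39 (mean -0.34, adjusted p = 0.1002). The Dmrta1 probe was not well above background in any pool.

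The other INK4 genes gave no difference that passed the test. The overlapping Cdkn2c probes, which read p18, had log2 ratios of 0.21, -0.02 and -0.25 (probe 1) and 0.32, -0.02 and -0.20 (probe 2), with means of -0.02 and 0.03 (adjusted p = 0.959 and 0.939), and -0.14 and -0.11 without array 1. The pair differed by 0.11, 0.0018 and 0.05 on arrays 1, 2 and 3, while each went from above 0 on array 1 to below 0 on arrays 2 and 3, so the arrays differed more than the probes. Cdkn2d, which encodes p19Ink4d, had ratios of -0.01, 0.09 and 0.15, a mean of 0.07 ± 0.08 (adjusted p = 0.707) and a 95% confidence interval of -0.11 to 0.26.

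The 3 genes whose ratios on the 3 arrays lay nearest to those of Cdkn2b, by Euclidean distance among probes well above background in at least 1 channel on all arrays, were Olfml3 (0.73, 0.79 and 0.82), Akr1c14 (0.68, 0.84 and 0.81) and Saa2 (0.70, 0.86 and 0.96), at distances of 0.08, 0.09 and 0.10.

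**Figure D4:**
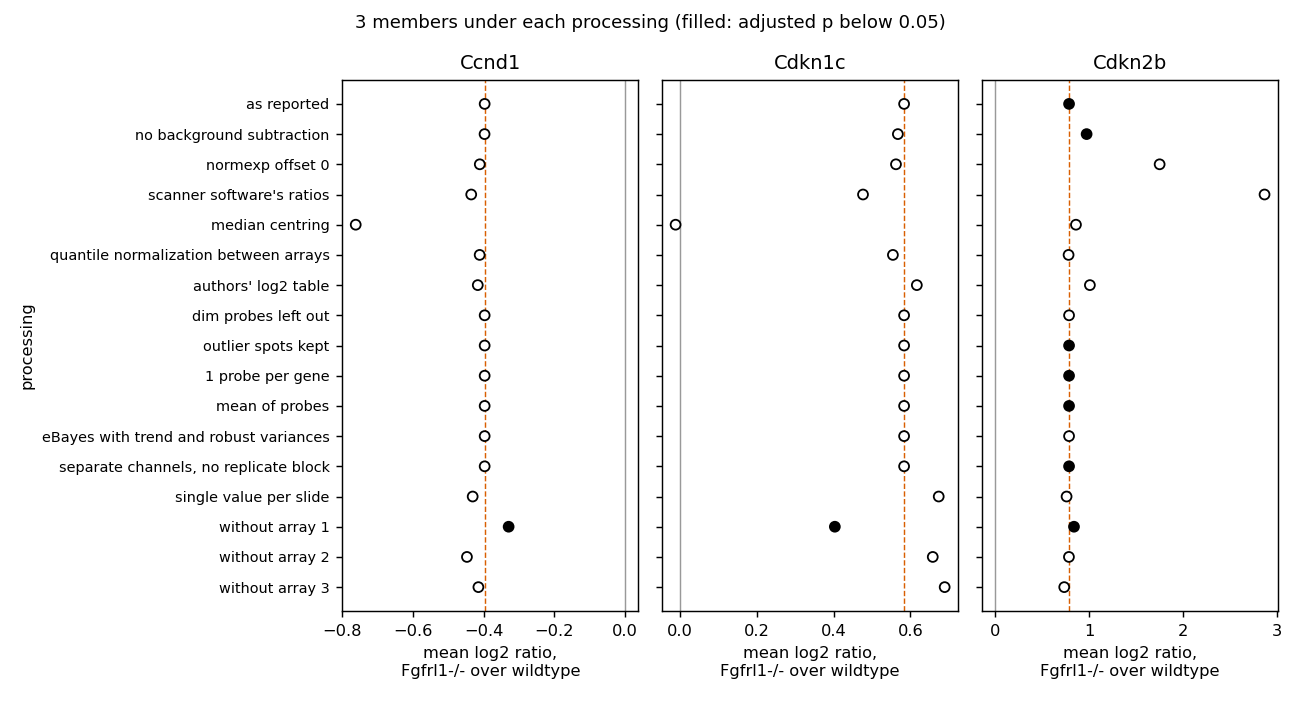
Mean log2 ratio of Fgfrl1-/- over wildtype (horizontal axes, scaled per panel) of Ccnd1, Cdkn1c and Cdkn2b as reported and under 16 alternatives (vertical axis). Filled circles mark an adjusted p below 0.05 and the dashed line the reported value. Ccnd1 stays below 0, Cdkn2b stays above 0, and Cdkn1c reaches -0.01 with median centring.

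The G1/S machinery is a list of 35 genes that act upstream of, with or downstream of the D cyclins and CDK inhibitors. Of its 74 probes 3 fell and 0 rose, against 0.398% and 0.289% of all probes. The 3 were Ccne2 (mean -0.75 ± 0.19, adjusted p = 0.0494), a cyclin of Cdk2, Cks2 (-0.77 ± 0.11, adjusted p = 0.0393), a small subunit of CDK complexes, and Mycn (-0.88 ± 0.23, adjusted p = 0.0439), a transcription factor. Each had a second probe with a smaller difference that did not pass the test, -0.46 for Ccne2, -0.35 for Cks2 and -0.50 for Mycn. Of the 74 probes, 54 had a mean below 0, against 20087 of all 41174 probes. The median of the list was -0.16, against 0.0037 over all probes. Under 6 other scalings the median of the list lay between -0.32 and -0.15. The highest mean, 0.46, was that of Fbxo4, an adaptor for the degradation of cyclin D1 (adjusted p = 0.0718). Its second probe had a mean of 0.12. That probe was well above background in the Fgfrl1-/- pool on 1 array and in no wildtype pool. Without array 1 the list had 26 probes past the test, of 7666 among all probes, and without array 2 or array 3 no probe on the array passed in limma.

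The direct partners of the members, named here for their role after their values were seen, gave no call. Cdk4 had log2 ratios of -0.66, 0.36 and 0.27 (adjusted p = 0.99), with array 1 on the other side of 0 from arrays 2 and 3. The 3 Cdk6 probes had means of -0.21, -0.10 and 0.06. The probe at -0.10 was well above background in the Fgfrl1-/- pool on 1 array and in the wildtype pool on 2. For Rb1, which encodes the retinoblastoma protein, the brighter probe had ratios of 0.31, 0.39 and 0.35 (adjusted p = 0.0978). The second Rb1 probe had a mean of -0.05 and was well above background in the Fgfrl1-/- pool on 1 array and in no wildtype pool. Of 30 probes for 20 proliferation genes, 0 passed the test, 12 had an unadjusted p below 0.05, 25 had a mean below 0, and the median was -0.20. Over all probes 15.9% had an unadjusted p below 0.05, and 20087 of 41174 had a mean below 0.

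**Figure D5:**
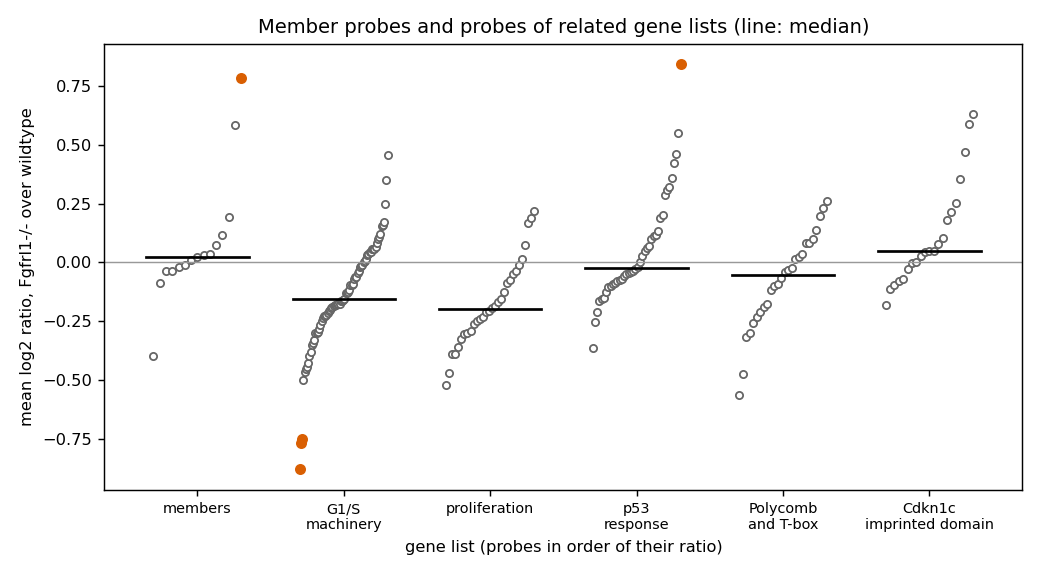
Mean log2 ratio of Fgfrl1-/- over wildtype (vertical axis) of the 15 member probes and of the probes of 5 related lists (horizontal axis), each in order of its values. Orange points passed the test and black lines are medians. The passing probes are Cdkn2b among the members, 3 low G1/S probes and 1 high p53 response probe, and the G1/S and proliferation medians lie below 0.

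Genes of pathways that act on single members, not only the regulators themselves, were read in the same way. Over all probes 0.687% passed and 15.9% had an unadjusted p below 0.05. Of 40 probes of the p53 response, the pathway that induces Cdkn1a, 1 passed: Btg2, an antiproliferative gene, with a mean of 0.84 ± 0.16 (adjusted p = 0.0399), while its other probes had means of -0.02 and 0.19. The lowest was Bax, with -0.36 (adjusted p = 0.0954), and the median of the list was -0.02. Of 26 probes for Polycomb and T-box genes, which are known repressors of the Cdkn2a locus, 0 passed and 7 had an unadjusted p below 0.05. Suz12 had the lowest mean, -0.56 (adjusted p = 0.0978), and Tbx3 the highest, 0.26 (adjusted p = 0.511). The second Suz12 probe had a mean of -0.21. The Tbx3 ratios were 0.71, -0.07 and 0.14 on arrays 1, 2 and 3, and its second probe had a mean of 0.02. That second probe was well above background in the Fgfrl1-/- pool on 1 array and in no wildtype pool.

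Of 21 probes for genes in the imprinted region that holds Cdkn1c, 0 passed. An unadjusted p below 0.05 was found in 6 of them, against 15.9% of all probes. Slc22a18, next to Cdkn1c in the annotation, had the highest mean, 0.63 ± 0.19 (adjusted p = 0.0661). Its second probe had a mean of -0.0038. That probe was dim, with a mean normalized log2 signal of 6.43 in both genotypes, against 8.59 (Fgfrl1-/-) and 7.96 (wildtype) for the first. Tssc4 had the lowest, -0.18. H19, a maternally expressed RNA named after its values were seen, had means of 0.25 and 0.59 (adjusted p = 0.264 and 0.0661), and the paternally expressed Igf2 had 0.36 and 0.10 (adjusted p = 0.1002 and 0.560).

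Markers of kidney cell types moved in the same arrays as these members. Over all probes 0.398% fell, 0.289% rose and 15.9% had an unadjusted p below 0.05, and 21087 of 41174 had a mean above 0. Of 18 renal vesicle marker probes, 11 fell and the median was -1.16, and their summed normalized signal was 5372 to 6309 in the Fgfrl1-/- pools and 14954 to 16082 in the wildtype pools. In such a sum the brightest probes weigh most. Of 19 cap mesenchyme probes 4 fell, with sums of 26622 to 29565 against 36761 to 37446. Of 24 stroma probes, 3 rose, 22 had a mean above 0 and the median was 0.34, with sums of 207508 to 253099 against 147542 to 153340. The 3 were probes of Col1a1, Foxd1 and Pdgfra, and the 2 with a mean below 0 were those of Tcf21 (-0.48) and Pdgfrb (-0.25). By the paper's qPCR at the same stage, Col1a1 was not higher in Fgfrl1-/- kidneys. Nor were the other array up-regulated transcripts that the paper tested in this way. Cdkn2b was not among the genes of that qPCR. Of 18 macrophage probes, 0 passed, 13 had an unadjusted p below 0.05 and 18 had a mean above 0, with a median of 0.45 and sums of 6736 to 10791 against 5160 to 5993. Of 17 ureteric bud probes, 2 fell and 1 rose, 8 had a mean below 0 and 9 above 0, and the median was 0.13. Their sums were 48320 to 61242 against 39029 to 44972.5. Under 6 other scalings the median of this list lay between -0.08 and 0.15. Among these lists, 1 Pax8, 1 Ret, 1 Upk3a and 2 Ptprc probes were not well above background in any pool. No probe passed in limma among the markers of endothelium, erythroid cells, steroidogenic cells, skeletal muscle or neural cells, of which 0 of 15, 3 of 11, 1 of 13, 1 of 10 and 4 of 14 probes had an unadjusted p below 0.05. The part of these shifts in the ratios of Ccnd1, Cdkn1c, Cdkn2b and the G1/S genes was not tested.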

How the data were processed

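For each array the authors deposited the Agilent Feature Extraction output (array 1 with version 9.5.3.1, the others with 10.5.1.1): median spot and background brightness as raw intensity, processed signals and log10 ratios. A deposited table of log2 ratios, with column medians of -0.018, 0 and 0.003, correlated at r = 0.97, 0.89 and 0.91 with the ratios computed here in the direction Fgfrl1-/- over wildtype and was an alternative. The authors analysed the scanner output in R with Bioconductor packages, and the normalization behind their table is not given in the sources used here. Gene names came from the array 1 file, whose spots had the same order on all arrays. In limma 3.58.1 (R 4.3.3) median signals were corrected with normexp (offset 50) and loess, outlier spots (107, 113 and 138 per array) were left out, spots of a probe were averaged, and a moderated test of the mean log2 ratio was run over all 41174 probes with Benjamini-Hochberg adjustment. Channel levels followed Aquantile scaling. A probe counted as well above background on the scanner's flag in over 0.5 of its spots. 0 spots were saturated. 3 arrays limit the precision. The members and lists were chosen with earlier results of these data known. All probes of the members were named, and of the G1/S, p53, Polycomb, imprinted and neighbour lists each gene past the test and the highest and lowest probe above background.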

Additional observations from a re-analysis of the deposited data

How the results depend on the processing

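Ccnd1 stayed below 0 and Cdkn2b above 0 under all 16 alternatives. Cdkn1c was -0.0118 with median centring and above 0 under the other 15. Many alternatives could not show a change of sign in these probes. Leaving out dim probes, keeping outlier spots, choosing or averaging probes, trended robust variances and separate channels left their ratios unchanged. Leaving out an array, or averaging arrays by slide, could not reverse ratios with 1 sign on all arrays. The count of member probes past the test was 0 with a normexp offset of 0, the ratios of the scanner software, median centring, quantile normalization, the authors' table, dim probes left out, trended robust variances and a single value per slide. It lay between 0 and 3 when 1 array was left out. The G1/S count was 0 with offset 0, scanner ratios, the authors' table, dim probes left out, trended robust variances and a single value per slide, 1 with no background subtraction, quantile normalization and the mean of probes, and 0 to 26 with 1 array left out. The count over all probes was 0 with offset 0, scanner ratios and a single value per slide. It was 93 with median centring, 65 with quantile normalization, 36 in the authors' table, 60 with dim probes left out and 6 with trended robust variances. With separate channels and no replicate block it was 460, and there the pools sharing an array were linked by an estimated correlation of 0.45. It was 0 to 7666 with 1 array left out. The slide as a random block could not be fitted with 3 arrays.

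Cdkn1c passed the test without array 1. The other sign changes concerned probes that passed the test neither as reported nor under an alternative. With no background subtraction Cdkn2c probe 1 was 0.0259 and Cdkn1b probe 3 was 0.0243. In the scanner ratios Cdkn2a was -0.11, Cdkn1b probe 2 was 0.0282, Ccnd2 probes 1 and 2 were 0.107 and 0.0730, and Cdkn2c probe 1 was 0.12. With median centring Cdkn2d was -0.24, Cdkn1b probes 1, 2 and 3 were -0.0029, 0.0301 and 0.0042, Ccnd3 was -0.34 and Ccnd2 probe 3 was -0.37. With quantile normalization Cdkn1a was -0.0019. In the authors' table Cdkn2c probe 1 was 0.015 and Cdkn1b probe 3 was 0.0523. With the mean of probes Ccnd2 was 0.0227 and Cdkn2c 0.0057. With a single value per slide Ccnd3 was -0.0800, Cdkn1a -0.0482, Ccnd2 probes 1 and 2 were 0.0250 and 0.0027, and Cdkn2c probe 1 was 0.0366. With 1 array left out, Ccnd2 probe 1 ranged from -0.0872 to 0.0514, Ccnd2 probe 2 from -0.112 to 0.0167, Ccnd3 from -0.16 to 0.22, Cdkn1a from -0.0925 to 0.126, Cdkn1b probe 2 from -0.114 to 0.0973, Cdkn1b probe 3 from -0.180 to 0.0233, Cdkn2a from -0.0172 to 0.0729, Cdkn2c probe 1 from -0.136 to 0.0944 and Cdkn2c probe 2 from -0.11 to 0.15. Apart from what each alternative's own construction shows, the cause was not tested.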
